A study of Sus scrofa with 2 samples.

Results

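ITGA6, ITGB4, COL17A1, LAMA3 and LAMB3 encode proteins that hold the basal keratinocytes of the epidermis to the basement membrane. They were chosen by symbol from a list of hemidesmosome and basement membrane genes. All 5 were found, of 31908 genes listed. Together they are 5 of the features of a count of unique molecular identifiers (UMIs, tags that mark single captured RNA molecules) in pig skin cells.

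Single-cell RNA was measured in dissociated dorsal skin of healthy male farm pigs, with 2 libraries made by the 10x Genomics 3′ kit. The comparison of the libraries asks whether skin cells that were frozen keep the expression profile of fresh cells. The fresh library carries the title fresh and the treatment label none. The cryopreserved library held cells frozen in 90% FBS (fetal bovine serum) and 10% DMSO (dimethyl sulfoxide), kept in liquid nitrogen and thawed. Both libraries were freed of dead cells before loading. The extraction text given for the fresh library also describes freezing, so its group rests on the title, the treatment label and the methods of the study. Whether 1 animal gave both libraries is not stated in the sources used here. Each condition had 1 library, so no test between conditions or cell classes was possible. The intervals given below cover counting error only and leave out the spread between cells, animals and libraries.

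A hemidesmosome is a rivet-like junction at the basal face of an epithelial cell. Integrin alpha 6 (ITGA6) and integrin beta 4 (ITGB4) pair in the cell membrane and bind laminin outside and the keratin network inside, and collagen XVII (COL17A1) spans the membrane beside them. Laminin alpha 3 (LAMA3) and laminin beta 3 (LAMB3) are chains of the laminin that keratinocytes lay down beneath the epidermis. Inherited loss of any of these proteins is known to cause skin blistering, and cells that leave the basal layer lose their hemidesmosomes.

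In the RefSeq annotation of Sscrofa11.1, the build that the submitters' processing notes also name, ITGA6 (ENSSSCG00000015955) lay at chr15:78504108-78591779 on the plus strand with 26 exons. ITGB4 (ENSSSCG00000017204) lay at chr12:5651292-5685601 on the minus strand with 42 exons, and COL17A1 (ENSSSCG00000010607) at chr14:114959404-115007734 on the minus strand with 57 exons. LAMA3 (ENSSSCG00000003709) lay at chr6:108548818-108805700 on the plus strand and LAMB3 (ENSSSCG00000015618, 24 exons) at chr9:133298009-133351162 on the plus strand. In this RefSeq annotation LAMB3 overlapped a long noncoding RNA gene on the minus strand. The study counted with the Ensembl annotation, in which this overlap was not looked up. Whether the counting used strand is not given in the sources used here. LAMA3 had 3 annotated transcripts that start 0, 55677 and 178410 bases from the gene's start and share its end, with 75, 74 and 38 exons. Counts of tags near the 3′ end cannot separate these transcripts.

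The 200 bases before the annotated starts are shown because ITGA6, ITGB4, COL17A1 and LAMB3 had their lowest keratinocyte levels in the same differentiated cells of both libraries. LAMA3 was lowest there only in the cryopreserved library, and its fresh low in dividing cells rested on 75 UMIs in 22 cells. All 3 LAMA3 starts are given. The sequences are read 5′ to 3′ on the gene's strand from the Sscrofa11.1 genome. Capitals mark the letters TGANTCA, the core that AP-1 factors are known to bind, searched on both strands (the letters read the same way on each except at N). The middle LAMA3 start lies 55677 and the inner one 178410 bases into the gene.
COL17A1 (chr14:115007735-115007934, minus strand): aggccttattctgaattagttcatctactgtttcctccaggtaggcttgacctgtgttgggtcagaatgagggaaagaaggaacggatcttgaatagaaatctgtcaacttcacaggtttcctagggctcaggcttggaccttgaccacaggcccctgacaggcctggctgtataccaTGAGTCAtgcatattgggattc
LAMA3 outermost start (chr6:108548618-108548817, plus strand): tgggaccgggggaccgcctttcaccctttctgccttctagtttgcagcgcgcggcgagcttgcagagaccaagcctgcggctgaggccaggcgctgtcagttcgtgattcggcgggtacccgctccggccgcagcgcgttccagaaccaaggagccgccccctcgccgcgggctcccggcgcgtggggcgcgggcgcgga
LAMA3 middle start (chr6:108604295-108604494, plus strand): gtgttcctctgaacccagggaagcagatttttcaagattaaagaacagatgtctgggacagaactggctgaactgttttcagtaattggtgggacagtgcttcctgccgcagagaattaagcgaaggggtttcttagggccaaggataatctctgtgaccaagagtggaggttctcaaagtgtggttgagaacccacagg
LAMA3 inner start (chr6:108727028-108727227, plus strand): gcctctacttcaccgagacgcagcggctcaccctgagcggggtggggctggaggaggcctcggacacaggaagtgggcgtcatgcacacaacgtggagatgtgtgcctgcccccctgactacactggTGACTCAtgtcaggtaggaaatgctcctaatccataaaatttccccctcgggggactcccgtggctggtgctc
LAMB3 (chr9:133297809-133298008, plus strand): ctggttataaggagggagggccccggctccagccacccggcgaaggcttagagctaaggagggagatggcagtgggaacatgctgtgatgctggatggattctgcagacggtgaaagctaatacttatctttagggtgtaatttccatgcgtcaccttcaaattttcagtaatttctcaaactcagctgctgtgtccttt
ITGA6 (chr15:78503908-78504107, plus strand): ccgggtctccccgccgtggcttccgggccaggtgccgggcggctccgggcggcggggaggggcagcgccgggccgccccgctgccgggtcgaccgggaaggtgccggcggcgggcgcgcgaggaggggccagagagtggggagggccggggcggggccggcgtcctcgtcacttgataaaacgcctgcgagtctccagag
ITGB4 (chr12:5685602-5685801, minus strand): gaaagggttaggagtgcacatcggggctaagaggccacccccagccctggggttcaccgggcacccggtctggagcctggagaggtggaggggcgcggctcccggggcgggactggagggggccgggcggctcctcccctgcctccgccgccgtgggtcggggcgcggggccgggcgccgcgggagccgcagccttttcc
COL17A1 held TGAGTCA from 22 bases before its start. The inner LAMA3 start held TGACTCA from 73 bases before it, at chr6:108727155-108727161, which is inside exon 38 of the longest LAMA3 transcript and exon 37 of the middle one. No match was found before the starts of ITGA6, ITGB4, LAMB3 or the outermost and middle LAMA3 transcripts. In windows from 250 bases before to 50 bases after the start, TGANTCA occurred in 6.07% of 19556 annotated promoters. GC content of those windows was 76.7% for ITGA6, 78.3% for ITGB4, 49.7% for COL17A1 and 52% for LAMB3, with a median of 58.7% over all promoters. For LAMA3 it was 73% at the outermost, 47.7% at the middle and 61% at the inner start. The letters GGGCGG, a GC box, occurred 4 times each in the ITGA6 and ITGB4 windows and 3 times at the outermost LAMA3 start, and were absent from the windows of COL17A1, LAMB3 and the other two LAMA3 starts, with 50.6% of all promoters holding at least 1 on either strand.

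The fresh library held 4379 barcodes and 53271738 UMIs, of which 2775 cells with 32274985 UMIs passed the maxima the study states (4500 genes, 30000 UMIs and 10% mitochondrial UMIs per cell). The cryopreserved library held 4860 barcodes and 42217632 UMIs, of which 4223 cells with 36687009 UMIs passed. The median fresh cell had 11017 UMIs and the median cryopreserved cell 7945. The libraries shared 5 barcodes after filtering. Keratinocyte-like cells numbered 530 fresh and 1058 cryopreserved. In them KRT5, a basal keratin, stood at 15827 and 14739 UMIs per 1000000 UMIs of the class (CPM), against 30.4 and 55.9 in the rest of the cells. KRT5 is in the marker list that named the class, so its level describes the class and is no independent check of the label. KRT14 was not matched by name in the files.

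Among skin lineages, COL17A1 and LAMB3 were found almost entirely in keratinocyte-like cells, while ITGA6, ITGB4 and LAMA3 each had a further home. Keratinocyte-like cells held 99.2% of all fresh and 98.3% of all cryopreserved COL17A1 UMIs. For LAMB3 the shares were 99.0% and 98.4%, and for LAMA3 89.1% and 88.4%. ITGA6 had 80.6% and 85.8% of its UMIs there, and ITGB4 73.2% and 80.6%. All 5 genes were at least 2-fold higher in keratinocyte-like than in the remaining cells in both libraries, a difference met by 14.3% of 11692 genes with at least 200 UMIs.

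ITGA6 stood at 702 CPM in fresh keratinocyte-like cells (95% exact Poisson interval 684 to 721) and at 592 CPM in cryopreserved ones (578 to 607). Blood endothelial-like cells followed with 567 CPM fresh (530 to 605) and 471 CPM cryopreserved (434 to 511). Mast-like cells had 536 CPM fresh (450 to 634) and 601 CPM cryopreserved (513 to 701), from 138 and 163 UMIs. The order of these 3 classes, each taken as a whole, was therefore not settled. The keratinocyte-like interval lay above both others in the fresh library and overlapped that of mast-like cells in the cryopreserved one. Lymphatic-like cells had 172 and 167 CPM, below the 3 leading classes in both libraries. T or NK-like cells had 28.2 and 53.8 CPM, with 42.5% of the cryopreserved UMIs in a single cell. The remaining named classes (SMC-like, CD163/CD209 myeloid-like, fibroblast-like and Langerhans or other dendritic-like cells) lay between 3.02 and 16.1 CPM.

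ITGB4 was the only one of the 5 genes with its highest level outside the keratinocyte-like cells in both libraries. Lymphatic-like cells had 298 CPM fresh (261 to 338) and 362 CPM cryopreserved (316 to 414). Keratinocyte-like cells as a whole had 210 (200 to 220) and 201 CPM (192 to 209), and blood endothelial-like cells 172 (152 to 194) and 186 CPM (163 to 211). The keratinocyte-like and blood endothelial-like intervals overlapped in the cryopreserved library. All remaining named classes were at or below 8.32 CPM, and mast-like cells, although high in ITGA6, had no ITGB4 UMI in either library, which allows up to 11.7 CPM in the fresh one (3 UMIs of the class total) and no more in the other.

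The 2 partner chains of the integrin thus differed in balance between blood and lymph vessels. ITGA6 was 3.30-fold higher in blood endothelial-like than in lymphatic-like cells in the fresh library (95% conditional binomial interval 2.76 to 3.97) and 2.82-fold in the cryopreserved one (2.28 to 3.52). ITGB4 went the other way, with ratios of 0.58 (0.48 to 0.69) and 0.51 (0.42 to 0.62). At least 2-fold higher in both libraries were 14.6% of 3554 genes and at least 2-fold lower 12.1%, and ITGB4 did not meet the latter in either library. Counted as ITGA6 UMIs per ITGB4 UMI, lymphatic-like cells had 0.58 and 0.46, blood endothelial-like cells 3.29 and 2.54, and keratinocyte-like cells 3.34 and 2.95. Mast-like cells had 138 and 163 ITGA6 UMIs for 0 ITGB4 UMIs. Their ITGA6 level was 19.0-fold (12.7 to 29.2) and 11.2-fold (8.43 to 14.9) that of T or NK-like cells, a comparison in which 10.3% of genes were at least 2-fold higher.

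COL17A1 stood at 1110 CPM fresh (1087 to 1134) and 1043 CPM cryopreserved (1024 to 1063) in keratinocyte-like cells. In the rest of the cells it had 2.97 and 7.26 CPM. The highest of those values, 16.9 CPM in cryopreserved blood endothelial-like cells and 17.0 in T or NK-like cells, rested largely on single cells, which held 61.9% and 73.9% of the UMIs. Whether those cells are doublets was not tested.

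LAMA3 stood at 1078 CPM fresh (1055 to 1101) and 661 CPM cryopreserved (646 to 677) in keratinocyte-like cells. It was also found at a lower level in 3 mesenchymal and vascular classes: blood endothelial-like cells had 66.3 and 65.9 CPM, SMC-like cells 64.5 and 57.3 CPM, and fibroblast-like cells 49.1 and 42.6 CPM. Their intervals overlapped for blood endothelial-like and SMC-like cells in both libraries. The fibroblast-like cells were uneven: 3 of their 7 clusters had 69.5 to 146 CPM fresh and 71.8 to 87.0 CPM cryopreserved, 3 had 8.04 to 16.6 CPM in either library, and the smallest had 13.5 and 37.3 CPM from 3 and 6 UMIs. The SMC-like cells formed a cluster with 81.6 and 73.4 CPM and another with 43.1 and 31.3 CPM. Lymphatic-like cells had only 4 and 1 LAMA3 UMIs, and blood endothelial-like cells were 13.4-fold (5.08 to 50.1) and 39.5-fold (6.89 to 1578) higher.

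LAMB3 did not accompany LAMA3 outside the epidermis. It stood at 153 CPM fresh (144 to 162) and 163 CPM cryopreserved (155 to 171) in keratinocyte-like cells. The fibroblast-like cells, with 775 and 701 LAMA3 UMIs, had 6 and 12 LAMB3 UMIs, and the SMC-like cells, with 124 and 110, had 1 and 2. Per LAMB3 UMI, keratinocyte-like cells had 7.05 (6.63 to 7.50) and 4.06 (3.85 to 4.28) LAMA3 UMIs, and fibroblast-like cells 129 (59.1 to 353) and 58.4 (33.2 to 114). The intervals of the 2 classes were far apart in both libraries.

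**Figure D1:**
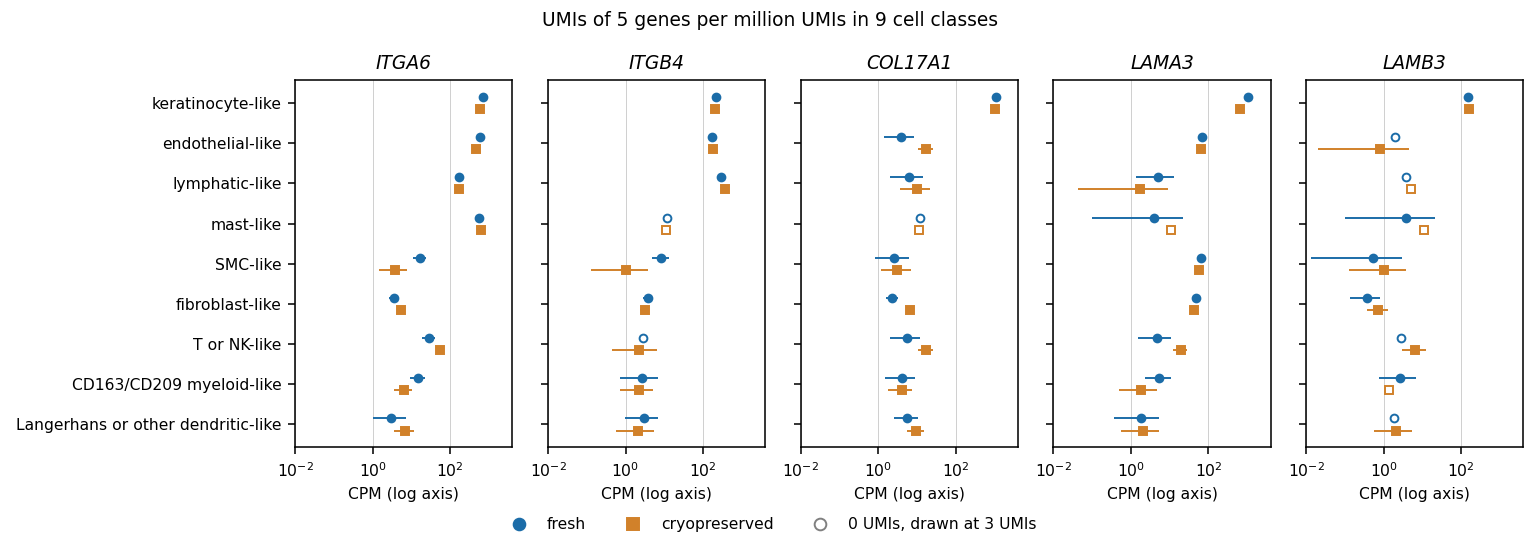
CPM of each gene (log axis) in 9 cell classes, with points for the fresh (circles) and cryopreserved (squares) library, bars for 95% exact Poisson intervals, and open symbols at the level of 3 UMIs where a class had no UMI. COL17A1 and LAMB3 stand out in keratinocyte-like cells alone, ITGA6 also in endothelial-like and mast-like cells, and ITGB4 reaches 298 and 362 CPM in lymphatic-like cells.

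The shares of cells with a UMI depend on depth, so each cell was thinned to 1000 UMIs. After thinning, 56.5% of the fresh keratinocyte-like cells and 55.0% of the cryopreserved ones had a COL17A1 UMI (86.0% and 85.2% before thinning), against 0% and 1.18% of T or NK-like cells. ITGA6 was found in 42.1% and 42.2% (90.4% and 90.1% before thinning), against 1.38% and 2.36%. LAMA3 was found in 38.7% and 32.0% (81.9% and 79.0%), against 0% and 0.79%. ITGB4 reached 19.4% and 17.9% (71.9% and 64.1%) and LAMB3 13.3% and 17.2% (65.8% and 62.9%), and neither was seen in thinned T or NK-like cells, where the exact binomial limits were 2.51% of 145 fresh cells and 1.44% in the cryopreserved library. The median keratinocyte-like cell had 14856 UMIs fresh and 9697 cryopreserved, and the median T or NK-like cell 6512 and 4813. All 5 shares in keratinocyte-like cells were thus above this background.

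Keratinocyte-like cells formed 5 classes, clustered without the 5 genes and their pathway. They were a class rich in KRT15 (132 fresh and 237 cryopreserved cells), a class led by MMP3 and EREG (129 and 232), a class with PTHLH and SOX9 (104 and 236), dividing cells (22 and 71) and differentiated cells with KRT1 and KRT10 (143 and 282). The first 2 classes rest on 2 stage markers each and are therefore called by a gene among their 10 leading genes. MMP3 heads its list, while ASCL2 and SOX6 head that of the KRT15-rich class. LAMA3 and LAMB3 were among the 10 leading genes of the MMP3-led class, so their levels there describe the class and are no independent finding.

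The members of the hemidesmosome itself were high in the KRT15-rich and MMP3-led cells and lowest in the differentiated cells. COL17A1 had 1726 and 1757 CPM in KRT15-rich cells, fresh and cryopreserved, 1887 and 1753 in MMP3-led cells and 914 and 792 in PTHLH/SOX9 cells. In dividing cells it had 632 and 960 CPM, and in differentiated cells 245 and 341. KRT15-rich over differentiated, the ratio was 7.05 (6.47 to 7.71) fresh and 5.16 (4.83 to 5.51) cryopreserved. The order from KRT15-rich or MMP3-led to PTHLH/SOX9 and differentiated cells was the same in both libraries, while the 2 leading classes changed places and had overlapping intervals in the cryopreserved one.

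ITGB4 had 351 and 344 CPM in KRT15-rich cells, 308 and 334 in MMP3-led cells, 205 and 178 in PTHLH/SOX9 cells, 168 and 185 in dividing cells and 42.1 and 47.0 in differentiated cells. The ratio of KRT15-rich to differentiated cells was 8.34 (6.78 to 10.4) and 7.32 (6.17 to 8.74). Intervals of the 2 leading classes overlapped in both libraries, as did those of PTHLH/SOX9 and dividing cells. In KRT15-rich and MMP3-led cells the ITGB4 intervals overlapped those of lymphatic-like cells in both libraries.

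ITGA6 differed less between these classes. It had 873 and 828 CPM in KRT15-rich cells, 1046 and 887 in MMP3-led cells, 846 and 587 in PTHLH/SOX9 cells, 683 and 654 in dividing cells and 251 in differentiated cells of both libraries. Its KRT15-rich and MMP3-led levels lay above the intervals of mast-like and blood endothelial-like cells in both libraries. Its ratio of KRT15-rich to differentiated cells was 3.48 (3.17 to 3.82) and 3.30 (3.04 to 3.58), below the intervals for ITGB4. Accordingly, ITGA6 UMIs per ITGB4 UMI went from 2.48 (2.26 to 2.73) and 2.41 (2.21 to 2.63) in KRT15-rich cells to 5.96 (4.84 to 7.40) and 5.35 (4.51 to 6.37) in differentiated cells. The 2 ends did not overlap in either library.

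LAMA3, like ITGA6 and LAMB3, was highest in MMP3-led cells in both libraries, and it differed most from KRT15-rich cells there. It had 2276 and 1524 CPM in MMP3-led cells. It had 1076 and 492 CPM in KRT15-rich cells, 958 and 470 in PTHLH/SOX9 cells, 257 and 713 in dividing cells and 350 and 352 in differentiated cells. MMP3-led over KRT15-rich, LAMA3 was 2.12-fold (2.01 to 2.23) and 3.10-fold (2.89 to 3.32) higher. It was the only one of the 5 genes at least 2-fold higher there in both libraries, against 6.84% of 5442 genes, and with the 5 genes and their pathway kept in the clustering none was. LAMB3 had 274 and 322 CPM in MMP3-led cells, 185 and 190 in KRT15-rich cells, 104 and 111 in PTHLH/SOX9 cells, 120 and 133 in dividing cells and 69.0 and 89.5 in differentiated cells. Its log2 ratio of MMP3-led to KRT15-rich cells was 0.57 (0.36 to 0.77) and 0.77 (0.59 to 0.95), while those of ITGA6, ITGB4 and COL17A1 lay between -0.19 and 0.26 in the same comparison.

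KRT15-rich over differentiated, 4 of the 5 genes (ITGA6, ITGB4, COL17A1 and LAMB3) were at least 2-fold higher in both libraries, against 6.07% of 5985 genes, and LAMA3 was 3.07-fold (2.84 to 3.33) and 1.40-fold (1.29 to 1.52) higher. MMP3-led over differentiated, all 5 were, against 7.4% of 5782 genes. PTHLH/SOX9 over differentiated, ITGA6, ITGB4 and COL17A1 were, against 7.78% of 5768 genes. Scaling by trimmed means (TMM) in place of total UMIs shifted all log2 ratios of KRT15-rich to differentiated cells by -0.23 in both libraries, and those of MMP3-led to KRT15-rich cells by 0.15 fresh and 0.14 cryopreserved. No ratio of KRT15-rich to differentiated cells changed direction with it, but the log2 ratio of LAMB3 in the cryopreserved library went from 1.08 to 0.86 and was no longer past 2-fold, which left 3 genes.

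**Figure D2:**
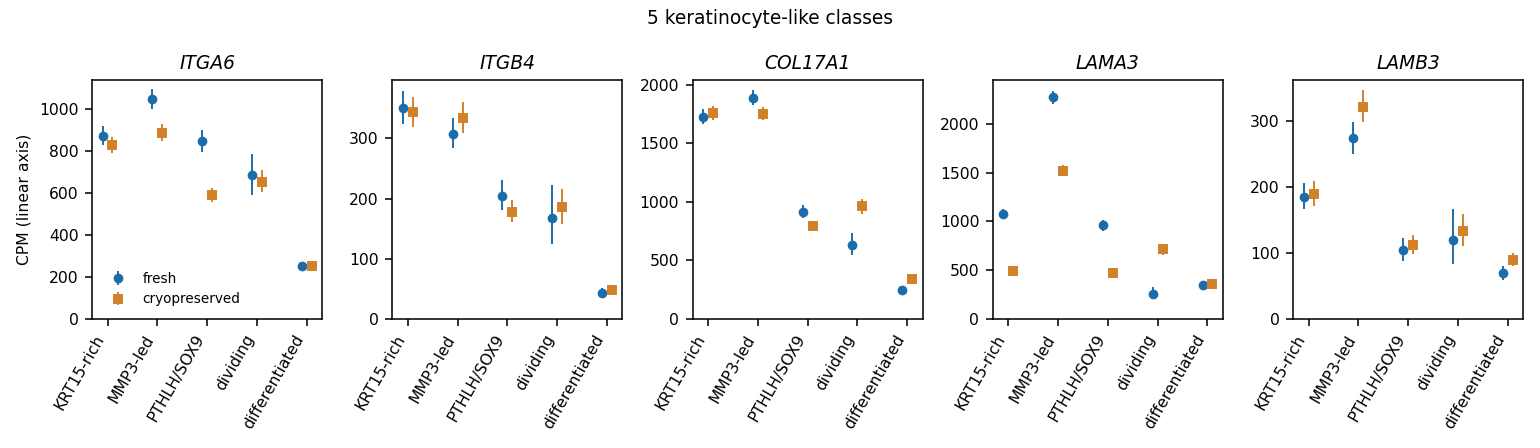
CPM of each gene (linear axis) in the 5 keratinocyte-like classes of the fresh (circles) and cryopreserved (squares) library, with 95% exact Poisson intervals. ITGA6, ITGB4 and COL17A1 are lowest in differentiated cells, and LAMA3 peaks in MMP3-led cells at 2276 and 1524 CPM.

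A second axis used no cluster border inside the keratinocyte-like cells, although KRT1 and KRT10 are also markers that name the differentiated class. Keratinocyte-like cells were put in 4 ranges by the share of their UMIs from KRT1 and KRT10, the keratins that cells express once they leave the basal layer. Up to 0.1% there were 360 fresh and 665 cryopreserved cells, from 0.1 to 1% 65 and 179, from 1 to 5% 65 and 124, and over 5% 40 and 90. The commonest class up to 0.1% was MMP3-led in the fresh and PTHLH/SOX9 in the cryopreserved library, so this range does not stand for KRT15-rich cells alone. In the later ranges the commonest class was differentiated. Of the cells in these ranges, 20, 17, 26 and 20 fresh and 40, 74, 54 and 37 cryopreserved ones lay within 1.5-fold of a limit, so the ranges are parts of a continuum.

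COL17A1 was lower in each successive range, from 1591 through 596 and 213 to 29.6 CPM in the fresh and from 1480 through 763 and 303 to 46.9 CPM in the cryopreserved library. ITGB4 went from 298 through 133 and 34.8 to 5.16 CPM and from 295 through 133 and 37.2 to 4.69 CPM. ITGA6 went from 939 through 474 and 288 to 101 CPM and from 779 through 505 and 237 to 158 CPM. Intervals of these 3 genes did not overlap between neighbouring ranges in either library. With limits of 0.2, 2 and 10%, which put 12 fresh and 19 cryopreserved cells in the last range, all 3 were again lower at each step, and the intervals of ITGB4 in the last 2 ranges overlapped.

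The laminin chains were also lower at the far end than at the near end. LAMB3 went from 202 through 114 and 52.6 to 40.0 CPM and from 216 through 120 and 79.4 to 47.8 CPM. LAMA3 was lower from the first to the second range, from 1525 to 370 CPM and from 911 to 348 CPM, and then stood at 332 and 229 CPM fresh and at 374 and 193 CPM cryopreserved. Its intervals in the second and the third range overlapped in both libraries. On the log2 scale, the lowest over the highest range, ITGB4 differed by 5.85 and 5.97 and COL17A1 by 5.75 and 4.98. ITGA6 differed by 3.22 and 2.30, LAMA3 by 2.73 and 2.24 and LAMB3 by 2.34 and 2.18, so these 3 were close to each other in the cryopreserved library. With the other limits the values were 4.22 and 2.97 for ITGA6, 3.48 and 2.59 for LAMA3, 1.64 and 3.17 for LAMB3, 7.42 and 5.10 for COL17A1 and 6.01 and 5.92 for ITGB4. The order of ITGA6 and the laminin chains changed in the cryopreserved library. The last of those ranges held only 1 ITGB4 UMI in each library, 2 and 9 of COL17A1 and 14 and 5 of LAMB3. Over the last 2 of them LAMB3 went from 38.2 to 63.4 CPM fresh and from 53.7 to 23.2 CPM cryopreserved, with overlapping intervals. For comparison, KRT15 went from 2196 to 1.29 CPM and from 1866 to 8.44 CPM over the same ranges, and KRT5 from 16284 to 2904 and from 14921 to 3249 CPM. In the cells richest in KRT1 and KRT10, ITGB4 rested on few UMIs, with intervals of 1.40 to 13.2 and 1.52 to 10.9 CPM.

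**Figure D3:**
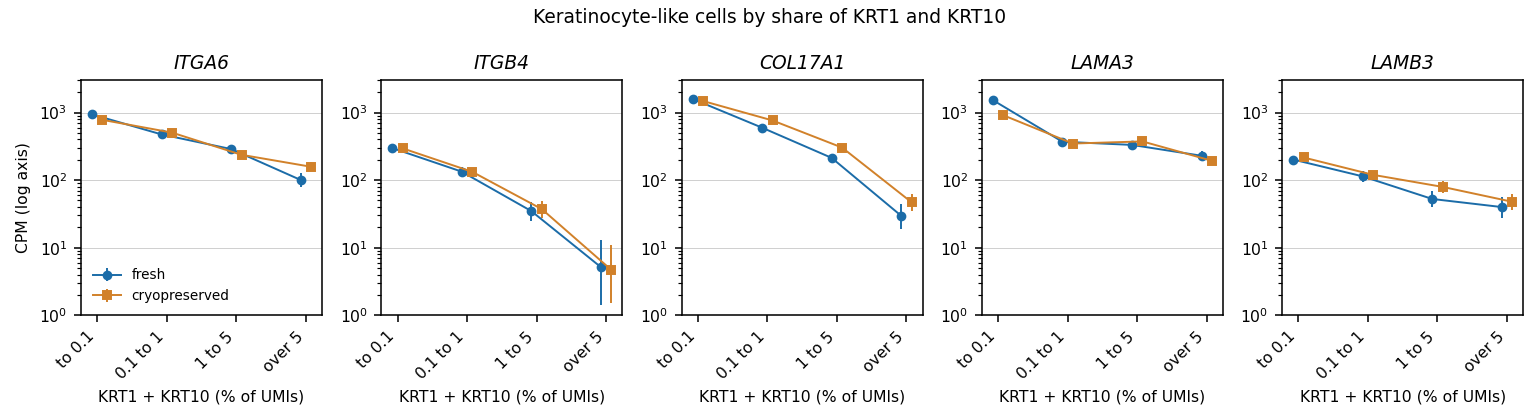
CPM of each gene (log axis) in keratinocyte-like cells grouped by the share of UMIs from KRT1 and KRT10, for the fresh (circles) and cryopreserved (squares) library, with 95% exact Poisson intervals. COL17A1 and ITGB4 are lower at every step, while LAMA3 stays between 193 and 374 CPM over the last 3 ranges.

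LAMA3 differed from the other 4 genes in how unevenly single cells carried it. In the fresh library the 41 keratinocyte-like cells with the most LAMA3 UMIs (7.74% of 530) held 50.5% of them, and in the cryopreserved library the 82 such cells (7.75% of 1058) held 50.1%. The same fraction of COL17A1 was spread over 106 and 211 cells, of ITGA6 over 95 and 220, of ITGB4 over 94 and 174 and of LAMB3 over 77 and 163. Of 1405 and 1944 genes with at least 1000 UMIs in these cells, 33 (2.35%) and 51 (2.62%) were held by fewer cells than LAMA3. The median cell had 304 and 239 CPM of LAMA3, and the highest single cell 18208 and 12282 CPM.

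Most of the LAMA3-rich cells were MMP3-led. They were picked by their LAMA3 UMIs, and LAMA3 is among the leading genes of that class, so this is no independent finding. Of the 41 fresh cells 22 were MMP3-led, 11 KRT15-rich, 6 PTHLH/SOX9 and 2 differentiated, and of the 82 cryopreserved cells 46, 9, 10 and 11, with 6 dividing. MMP3-led cells were thus 53.7% and 56.1% of them, against 24.3% and 21.9% of all keratinocyte-like cells, and differentiated cells 4.88% and 13.4%, against 27.0% and 26.7%. The LAMA3-rich cells held 16.4% and 14.4% of LAMB3 UMIs and 16.3% and 12.7% of COL17A1 UMIs, beside 8.29% and 7.44% of all UMIs. Their median depth was 14802 UMIs against 14869 in the remaining keratinocyte-like cells of the fresh library, and 8805 against 9777 in the cryopreserved one. Mitochondrial UMIs were 4.76% against 4.52% and 5.22% against 4.89%.

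**Figure D4:**
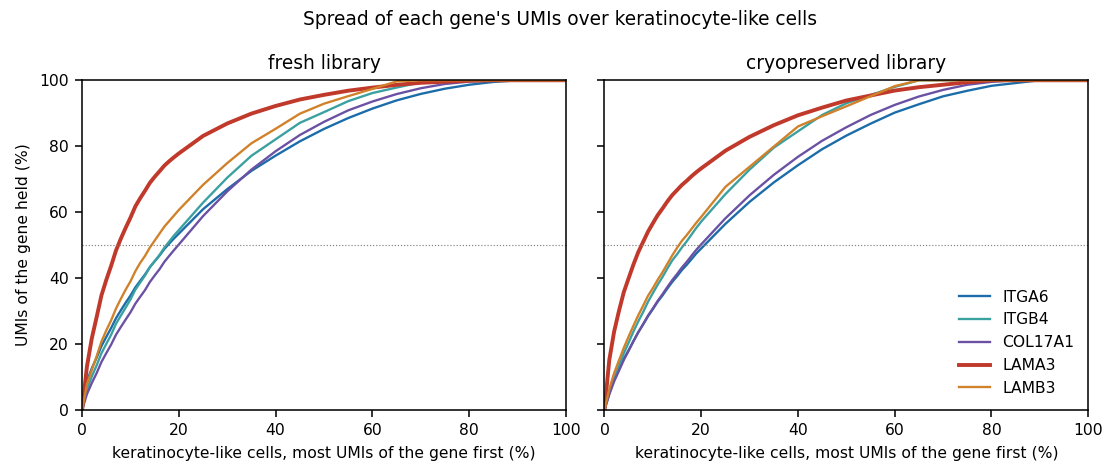
Share of each gene's UMIs (y axis, %) held by the keratinocyte-like cells with the most UMIs of that gene (x axis, %), fresh library on the left and cryopreserved on the right. The LAMA3 curve rises fastest in both libraries, passing the dotted line at 50% with 7.74% and 7.75% of the cells.

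Between the libraries, 4 of the 5 genes differed little in keratinocyte-like cells and LAMA3 was lower after cryopreservation. On the log2 scale, cryopreserved over fresh, LAMA3 differed by -0.71 (-0.75 to -0.66), ITGA6 by -0.25 (-0.30 to -0.19), COL17A1 by -0.09 (-0.13 to -0.05), ITGB4 by -0.07 (-0.16 to 0.03) and LAMB3 by 0.09 (-0.02 to 0.20). LAMA3 alone passed 0.5, in a comparison where 8.8% of 7758 genes did and 2.04% were lower by at least 0.5, and where the median absolute difference was 0.18. Keratinocyte-like cells made up 19.1% of cells in the fresh library but 25.1% in the cryopreserved one. A ratio over all cells therefore mixes expression with the share of each class, and is no separate check of the keratinocyte-like value. The keratinocyte-like value itself pools 5 classes whose shares differed. Of these cells, MMP3-led ones were 24.3% fresh and 21.9% cryopreserved, and dividing ones 4.15% and 6.71%. CPM weighs the classes by UMIs and not by cells. MMP3-led cells held 1845954 of 7734145 keratinocyte-like UMIs fresh and 2060852 of 10647987 cryopreserved, a wider gap than that of the cell shares. Over all cells LAMA3 differed by -0.42 and none of the 5 passed 0.5, against 13.1% of 11692 genes. With all deposited barcodes LAMA3 passed it at -0.52. With 1 library a condition, this difference has no replicate check, and animal, freezing and library preparation cannot be told apart.

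The LAMA3 difference was not even across classes. It was -1.13 (-1.24 to -1.02) in KRT15-rich, -1.03 (-1.15 to -0.91) in PTHLH/SOX9 and -0.58 (-0.65 to -0.51) in MMP3-led cells. In differentiated cells it was 0.01 (-0.12 to 0.13), and -0.31 when the 5 genes and their pathway were kept in the clustering. At resolution 0.4 it was -0.69, but the cluster named differentiated there also held all 369 KRT15-rich and 361 MMP3-led cells. With all deposited barcodes the MMP3-led value was -0.37 and no longer past 0.5. Lower by at least 0.5 in the first 3 classes were 3.19%, 8.6% and 3.76% of genes. The median single cell showed smaller gaps in KRT15-rich cells, with 250 against 201 CPM, and in PTHLH/SOX9 cells, with 248 against 191 CPM. In MMP3-led cells the gap of the medians was larger, with 1244 against 738 CPM. The top cell held 10.3% and 10.2% of the LAMA3 UMIs in KRT15-rich cells and 12.8% and 5.52% of those in PTHLH/SOX9 cells. Without the top cell of each class and library the 3 differences were -1.13, -0.57 and -0.92 in KRT15-rich, MMP3-led and PTHLH/SOX9 cells. In dividing cells, with 22 and 71 cells and 75 and 642 UMIs, the difference was 1.47 (1.12 to 1.83), against 16.9% of genes higher by at least 0.5, and it was -0.37 when all deposited barcodes were used.

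ITGA6, ITGB4, COL17A1 and LAMB3 had smaller differences in most classes. ITGA6 was lower by at least 0.5 only in PTHLH/SOX9 cells, at -0.53 (-0.65 to -0.41), where its top fresh cell held 11.4% of the UMIs. In that class 8.6% of genes were lower by at least 0.5. COL17A1 was higher by 0.48 (0.33 to 0.62) in differentiated and by 0.60 (0.37 to 0.84) in dividing cells. Among dividing cells 16.9% of genes were higher by at least 0.5, and the fresh COL17A1 value rested on 184 UMIs in 22 cells. In PTHLH/SOX9 cells COL17A1 was lower, with 914 CPM fresh and 792 cryopreserved. LAMB3 was higher by 0.38 (0.10 to 0.65) in differentiated cells. ITGB4 had intervals that included 0 in all 5 classes.

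**Figure D5:**
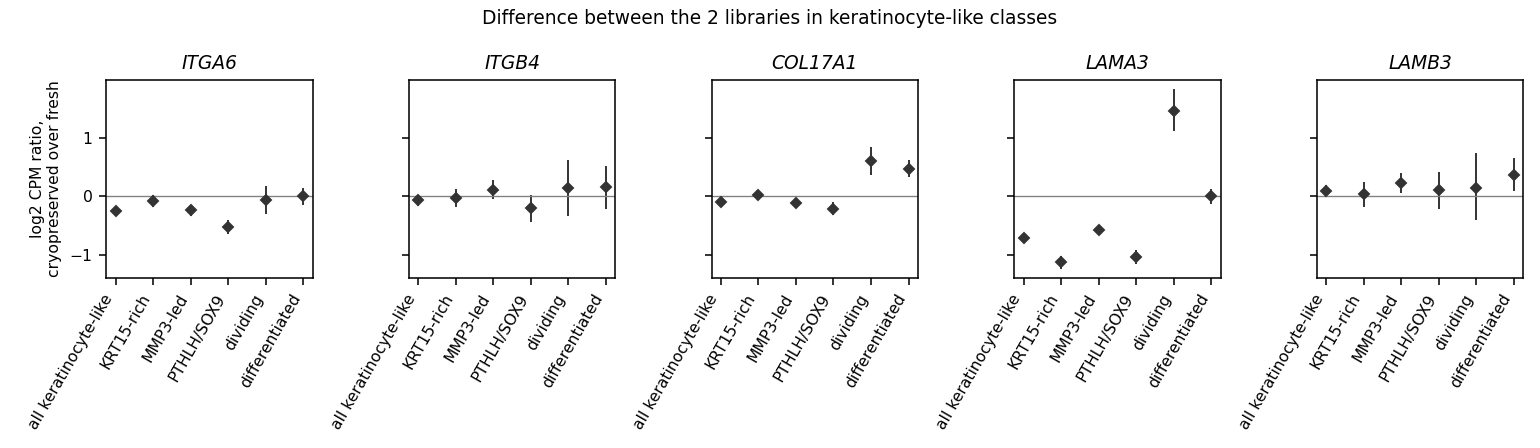
Log2 ratio of CPM, cryopreserved over fresh, for each gene in all keratinocyte-like cells and in the 5 classes, with 95% conditional binomial intervals of counting error. LAMA3 lies at -1.13 in KRT15-rich and at 1.47 in dividing cells, and ITGB4 lies near 0 throughout.

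The wider pathway list held plaque, laminin, collagen, protease and integrin genes. For keratinocyte-like against remaining cells, 36 of them had at least 200 UMIs in a library. Of these 12 were at least 2-fold higher in keratinocyte-like cells in both libraries, 15 at least 2-fold lower and 9 neither. Of all genes, 14.3% were higher and 23.3% lower. All genes were held to 200 UMIs over both libraries, so these shares and the list are not on the same base. Among the higher were the laminin chain LAMA5, the integrins ITGA2, ITGA3, ITGB5, ITGB6 and ITGB8, the collagens COL4A5, COL4A6 and COL18A1, FREM2 and FERMT1. Among the lower were the laminin and basement membrane genes COL4A1, COL4A2, LAMA4, LAMB1, LAMC1, NID1 and HSPG2. The proteases BMP1, TLL1 and ADAM9 and the integrins ITGA1 and ITGA5 were lower too. The median log2 ratio was -0.03 for the list and 4.45 for the 5 genes.

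Of the partners, DST, which encodes a plaque protein that ties keratins to the integrin, had 894 and 765 CPM in KRT15-rich and 101 and 92.4 in differentiated cells. PLEC, the plectin gene with a like role, had 191 and 297 CPM and 58.2 and 102 CPM. Across the list, 18 genes had at least 200 UMIs in a library in KRT15-rich and differentiated cells. Of these 10 were at least 2-fold higher in KRT15-rich cells and none lower, against 6.07% and 3.39% of all genes. All genes were held to 200 UMIs over both libraries, so list and background are not on the same base, here or below. From KRT15-rich to MMP3-led cells 7 of 20 were higher (among them ITGA2, ITGA3, ITGAV, ITGB1, ITGB6 and ITGB8) and COL4A6 was lower, against 6.84% and 5.55% of all genes. ITGA2 and ITGA3 were among the 10 leading genes of the MMP3-led class, so their levels there describe the class. COL7A1, the anchoring fibril collagen, was not matched by name.

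The genes with the most similar pattern were ranked by Pearson's r of log2(CPM + 10) over 22 clusters in both libraries (44 profiles, 11682 genes), which share their libraries and clustering, so r is given as a description. For COL17A1 these were LAMB3 and TP63 (both 0.98), FXYD3, PLCH2 and TNS4 (0.98 each). For LAMB3 they were COL17A1, TP63, PLCH2, INAVA and RIPK4 (all 0.98). For ITGA6 they included MCTP2 (0.94), DEPDC1B (0.89), KIAA1522 (0.89) and CARD10 (0.88), and for ITGB4 LRRC1, CELSR1, CCDC85C (0.92 each), PALMD (0.91) and MET (0.90). For LAMA3 they were KCNK1 (0.91), DDR1, ENSSSCG00000010370, TFAP2A and SLMAP (0.88 each). COL17A1 and LAMB3 were each other's nearest gene with a pseudocount of 10 or 50. With a pseudocount of 1, LAMB3 was number 17 for COL17A1 and COL17A1 number 32 for LAMB3 (r 0.93). Over the 10 profiles of keratinocyte-like clusters alone, ITGB4 was the nearest gene to COL17A1 (0.98) with a pseudocount of 10 or 50, and number 3, after SMOC2 and MAPKBP1, with 1.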

How the data were processed

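The authors made the counts with Cell Ranger 4.0.0 and STAR 2.5.1b on Sscrofa11.1, as the submitters' processing notes name them, and deposited raw UMI counts per gene and barcode for 2 libraries. Cells above the study's maxima of 4500 genes, 30000 UMIs or 10% mitochondrial UMIs were left out. The 5 genes and their pathway genes were left out before Seurat 5.3.0 anchor integration (R 4.3.3, 2000 variable features, 30 dimensions, Louvain resolution 0.8), which gave 24 clusters. Clusters were named from marker lists. The members and lists were chosen with earlier results of these data known. The pathway genes named were the subunit partners and those past 2-fold between keratinocyte-like and remaining cells, and the 5 genes of highest r per member. Some genes that these rules name are not reported here.

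UMIs of a gene were summed per class and library and divided by all UMIs of the class (CPM), with exact Poisson intervals (95%). Ratios had exact conditional binomial intervals. A gene was called between classes at 2-fold in both libraries, and between libraries at 0.5 log2, if it had at least 200 UMIs in the cells compared. For the pathway list between classes, these 200 UMIs were counted within a library, and for all genes over both. Shares had exact Clopper-Pearson intervals. UMIs are molecules, but the intervals leave out the spread between cells, which is wide for LAMA3, so they are narrower than intervals over cells would be. They also leave out the spread between animals and libraries, which 1 library a condition cannot give. Scanpy 1.11.5 with Scrublet, run on the cells below the maxima, called 8 doublets in each library, under 0.5% of the cells. Its calls were not used, and whether it missed doublets was not tested. Leaving out the 6% of cells with the highest score was an alternative. Other alternatives were the filters, clustering, scaling (edgeR 4.0.16 TMM factors and, for ratios of the libraries only, DESeq2 1.42.0 size factors), the cell with the most UMIs and the limit of 200 UMIs. The ratio code was tested on simulated data. Numbers were computed with Python 3.11.15, numpy 2.4.6, scipy 1.17.1 and pandas 2.3.3.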

Additional observations from a re-analysis of the deposited data

Results flagged for a closer look

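The barcodes left out by the study's maxima also carried the 5 genes. In the fresh library 1604 such barcodes with 20996753 UMIs had a summed 1017 CPM of the 5 genes, and in the cryopreserved library 637 barcodes with 5530623 UMIs had 931 CPM. Of single genes, COL17A1 had 326 and 345 CPM there and LAMA3 337 and 201 CPM. LAMA3 alone had the lower value in the cryopreserved library. The barcodes come from the same 2 libraries and were summed without a split by cell class, so this is no separate check. These barcodes were used in no comparison above except where all deposited barcodes are named.

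The difference of LAMA3 between the libraries had opposite directions in 2 keratinocyte-like classes, with a log2 ratio of cryopreserved to fresh of -1.13 in KRT15-rich and 1.47 in dividing cells. With 1 library a condition the difference between these classes was not tested. The fresh value in dividing cells rested on 75 UMIs in 22 cells, and in the cryopreserved library a single cell held 25.4% of the 642 UMIs.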

How the results depend on the processing

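No paired analysis was possible because each condition had 1 library and no result came from a test. COL17A1, LAMA3 and LAMB3 were highest in keratinocyte-like cells in both libraries under the main settings, and 3 to 4 genes were under the alternatives. LAMA3 stayed the only gene past 0.5 between the libraries in keratinocyte-like cells under all 10 alternatives, with log2 ratios from -0.73 to -0.54. Of the 5 genes, 3 to 5 were at least 2-fold higher in KRT15-rich than in differentiated cells, against 4 as reported. LAMB3 fell short in the cryopreserved library with TMM factors (0.86), without a mitochondrial limit (0.92) and with all deposited barcodes (0.80). DESeq2 size factors were not applied to ratios between classes. Their log2 shift for this comparison in the cryopreserved library was -0.24, beside -0.23 with TMM. With the 5 genes and their pathway kept in the clustering, 0 and not 1 were at least 2-fold higher in MMP3-led than in KRT15-rich cells, where LAMA3 had log2 ratios of 0.66 fresh and 1.18 cryopreserved. With all deposited barcodes the LAMA3 ratio of the libraries in dividing cells turned to -0.37. The cause was not tested in either case.

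In differentiated cells the LAMA3 ratio of the libraries, 0.01 as reported, ranged from -0.69 at resolution 0.4, where the KRT15-rich and MMP3-led cells were in the same cluster, to 0.14 without integration. In KRT15-rich cells it was -0.67 without integration, where that class also held 334 of the 361 MMP3-led cells. With all deposited barcodes it was -0.37 in MMP3-led cells and -0.52 over all cells. Of the 5 genes nearest to each gene, 1 to 3 were shared with a pseudocount of 1 and 2 to 5 with 50. The limits of the KRT1 and KRT10 ranges moved 7 of 10 ratios of the lowest to the highest range beyond their counting interval. In the comparison of MMP3-led with KRT15-rich cells, ITGA6, ITGB4 and COL17A1 ratios near 0 changed sign under some alternatives. The KRT15-rich and MMP3-led classes were not separate at resolution 0.4, and no MMP3-led class formed without integration, so those values were not computed.

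The numbers of genes past a fold grew with weaker limits on UMIs. KRT15-rich over differentiated, 363 genes became 782 with at least 50 UMIs and 1268 with 1 UMI in each class and library. MMP3-led over KRT15-rich, 372 became 658 with 1 UMI. Between the libraries, 683 became 1602 and 5031 in keratinocyte-like cells and 1527 became 2581 and 6327 over all cells. Depth limits the values from few UMIs, such as ITGB4 in the cells richest in KRT1 and KRT10.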
